A study of Mus musculus with 13 samples.

Results

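Type I interferon-stimulated genes are the genes that cells switch on after type I interferon has bound its receptor, and most of them encode antiviral proteins. A list of 36 such genes was described here in mouse endometrium, and 34 of the 36 had a feature (a probe set summarised to 1 value per array) whose only gene symbol in the array annotation was the member. Each of the 34 had exactly 1 such feature, among 30142 genes with a feature of 1 symbol and 65929 features in all. The feature of Ifi27 also carries the symbol of a neighbouring gene and Ifi44 was not matched, so neither was used here. Every one of the 34 features had a mean above 4.62, the median of all feature means on the log2 scale, although that of Isg15 lay close to it.

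The endometrium came from 13 female C57BL/6 mice, 1 array per mouse, and every mouse, controls included, had both ovaries removed at 6 to 8 weeks of age. For the next 12 weeks, 3 mice received an implanted estradiol-releasing pellet together with a high-fat diet (MIX), 4 received the pellet on chow (E2), 3 received the high-fat diet without a pellet (HD) and 3 received chow without a pellet (CON). No dose for the pellet and no fat content for the diet appear in the labels used here. The uterus was opened lengthwise and its lining scraped off, and 250 ng of total RNA was labelled per array. In such bulk tissue, a lower value can come from fewer cells of a type or from less RNA per cell, and these cannot be told apart. Animal codes in the sample titles come in a numbered style (3 E2, 2 HD and 2 CON mice) and a lettered style (all 3 MIX mice and 1 mouse each of E2, HD and CON). The labels do not explain these styles.

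Epithelial markers such as Epcam and Krt8 marked every array as the labels say, with a mean over 8 measured markers of 9.86 to 10.2 (log2) in MIX, 9.92 to 10.07 in E2, 9.91 to 10.16 in HD and 10.01 to 10.1 in CON mice. E2 replicate 4 stood apart from the other 12 mice in the genes described here. It had the highest value of all 13 mice in 33 of the 34 members, against 3.28% of all features. The exception was Samd9l, which was highest in E2 replicate 1. E2 replicate 4 is the only E2 mouse with a lettered code, so the difference between its code style and the other E2 mice cannot be told apart from the difference between this mouse and the others. The main counts, medians and differences that rest on the E2 mice are therefore given with and without it.

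As background, type I interferons (the alpha family, beta, epsilon and others) bind the receptor made of IFNAR1 and IFNAR2, and the kinases JAK1 and TYK2 then signal to STAT2. STAT2 acts with IRF9 in the factor ISGF3, which binds the interferon-stimulated response element in promoters of its target genes. IRF7, itself a target, drives further interferon production, whereas USP18, also a target, restrains the receptor. In the mouse uterus, epithelial cells make interferon epsilon without infection, at a level that follows the hormonal state.

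The response element is built around repeats of GAAA, and the promoters of some members hold such a repeat. RefSeq promoter entries (GRCm38.p6) were found for 26 of the 36 listed genes. The spaced pair GAAA, any 2 bases, GAAA, which reads TTTC, any 2 bases, TTTC on the other strand, lay in the 250 bases before the start of 10 of these 26 genes (38.5%). Over all promoter entries, 978 of 32851 (2.98%) held it, against 10 of 30 entries of the members (33.3%), since some genes have more than 1 entry. The 10 genes were Bst2, Ddx60, Ifit1, Ifit3, Isg15, Oas1a, Oas3, Rsad2, Stat2 and Trim30a. A match is a description of these letters and not a measured binding site. Of the genes whose values follow for every mouse and whose promoter holds a match, 4 are shown. They are those with the smallest unadjusted p in the comparison of E2 with CON mice below. Their promoters differ in how many copies they hold and where. The 150 bases before the start are printed. They run 5′ to 3′ on the gene's strand with matches in capitals. Bst2 (chr8:71537473-71537622, minus strand) holds 2 overlapping copies, at -130 and -124 from the start, and Ddx60 (chr8:61927937-61928086, plus strand) 2 separate ones, at -53 and -19. Trim30a (chr7:104465194-104465343, minus strand) and Rsad2 (chr12:26456453-26456602, minus strand) hold 1 copy each in the reverse orientation, beginning at -36 and -120.
Bst2: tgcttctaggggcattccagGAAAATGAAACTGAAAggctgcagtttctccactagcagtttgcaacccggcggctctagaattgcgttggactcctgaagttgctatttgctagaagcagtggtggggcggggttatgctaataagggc
Ddx60: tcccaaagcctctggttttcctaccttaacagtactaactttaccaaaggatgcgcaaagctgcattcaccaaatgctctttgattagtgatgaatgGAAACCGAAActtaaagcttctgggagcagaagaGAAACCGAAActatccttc
Trim30a: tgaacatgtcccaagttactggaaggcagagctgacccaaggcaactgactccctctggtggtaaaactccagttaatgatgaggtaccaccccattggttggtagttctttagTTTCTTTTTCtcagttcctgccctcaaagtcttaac
Rsad2: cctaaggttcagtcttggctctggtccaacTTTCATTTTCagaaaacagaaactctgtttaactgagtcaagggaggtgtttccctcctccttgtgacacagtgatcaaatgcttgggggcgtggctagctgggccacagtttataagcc

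Across the 34 members, the mean log2 value per mouse was 8.07, 7.53 and 8.25 in MIX, 8.17, 7.68, 7.76 and 9.44 in E2, 7.14, 7.69 and 8.24 in HD, and 7.68, 7.56 and 7.23 in CON. E2 replicate 4 was far above every other mouse. The remaining E2 mice lay at or above the highest CON mouse, and the MIX and HD mice overlapped both groups. Within a group, the same mice were high or low in most members. HD replicate 3 was the highest HD mouse in 32 members and HD replicate 1 the lowest in 33, MIX replicate 2 was the lowest MIX mouse in 29, and CON replicate 3 the lowest CON mouse in 27. Shares over all features were not computed for these ranks within a group. The lowest of all 13 mice was HD replicate 1 in 17 members (5.34% of all features) and CON replicate 3 in 10 (9.64% of all features). It was MIX replicate 2 in 4 members (17.6% of all features). The median SD within a group was 0.48 in MIX, 0.82 in E2, 0.52 in HD and 0.20 in CON mice, and 0.30 over the 3 E2 mice other than replicate 4. Between the highest and the lowest of the 13 mice, members spanned 0.89 (Dtx3l) to 4.16 (Rsad2) on the log2 scale.

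**Figure D1:**
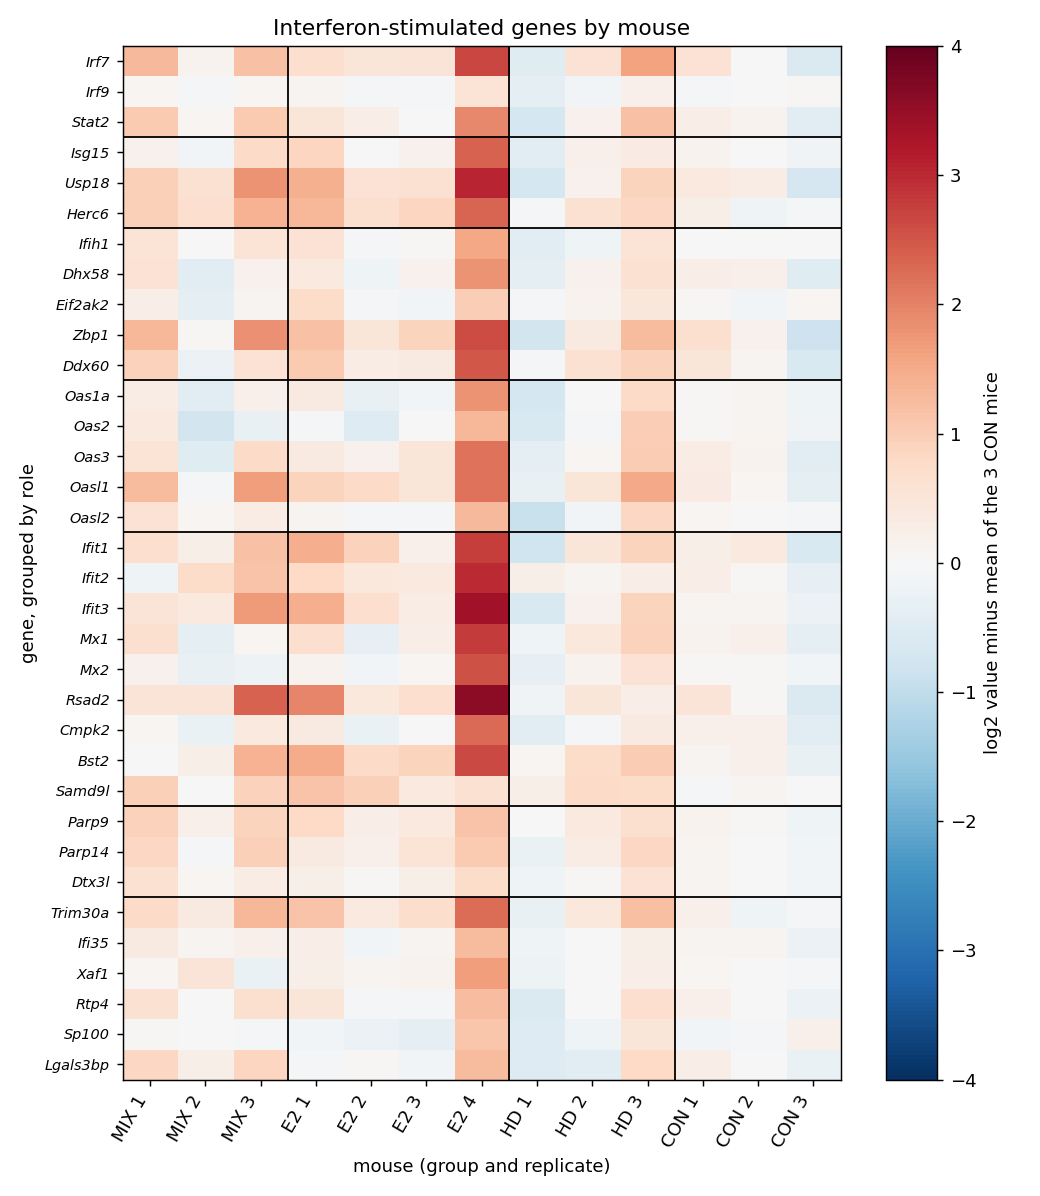
Log2 value of each of the 34 genes in each of the 13 mice, shown as the difference from the mean of the 3 CON mice (colour), with genes in rows grouped by role and mice in columns by group and replicate. The column of E2 replicate 4 holds the highest value in 33 of 34 rows, and the columns of HD replicate 1 and CON replicate 3 hold the lowest in 17 and 10 rows.

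E2 replicate 4 exceeded the mean of the other 3 E2 mice by a median of 1.55 on the log2 scale (2.93-fold), by more than 1 in 28 members and by more than 2 in 9. The differences ran from -0.21 for Samd9l to 2.59 for Mx1. Mx1 and Mx2 encode dynamin-like antiviral GTPases, and C57BL/6, like most laboratory strains, carries defective alleles of both. Mx1 read 8.73 in E2 replicate 4, against 6.61, 5.61 and 6.19 in the other E2 mice, and Mx2 read 8.47, against 6.04, 5.81 and 5.98. Rsad2, which encodes viperin, and the interferon-induced RNA-binding proteins Ifit2 and Ifit3 showed gaps of 2.57, 2.42 and 2.56. Cmpk2, the nucleotide kinase encoded beside Rsad2, showed a gap of 2.24. The gaps were smaller in Irf9 (0.53), Dtx3l (0.57), Parp9 (0.65) and Parp14 (0.67).

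The pellet on chow was compared with chow alone first. In the limma fit, which holds all 13 mice and a term for code style, all 34 members were higher in E2 than in CON mice, by a median of 0.745 on the log2 scale, and no member passed the test. The fitted differences ran from 0.163 (Irf9) to 1.72 (Rsad2). Over all 65929 features, 46.5% were higher and the median difference was -0.009. Benjamini-Hochberg adjusted p in limma was 1 for every member and 0 of 34 were called, against 0 of all features (0%). At an unadjusted p under 0.05, 14 members were higher and 0 lower, where 1.93% of all features were higher and 2.09% lower. Without E2 replicate 4, 32 of 34 members were higher (50.3% of all features) and the median was 0.381. At an unadjusted p under 0.05, 4 members (Herc6, Bst2, Samd9l and Trim30a) were then higher and 0 lower, against 1.71% and 1.74% of all features. Without the code style term all 34 were higher (47.5% of all features), with a median of 0.664. In that fit 9 were higher and 0 lower at an unadjusted p under 0.05, against 1.97% and 2.03% of all features. Without both the term and E2 replicate 4, 29 were higher (52.4% of all features), with a median of 0.288. Then 3 (Herc6, Bst2 and Samd9l) were higher and 0 lower at that p, against 2.61% and 2.3%. Every E2 mouse lay above every CON mouse in 11 members, against 3.01% of all features, and in 11, against 5.92%, when E2 replicate 4 was left out. Since E2 replicate 4 was not the lowest E2 mouse in any member, leaving it out could not change this count of members. Every E2 mouse lay below every CON mouse in 0 members (2.6% of all features), and without E2 replicate 4 in 1, Sp100 (4.79%). With all mice, these 11 were Usp18, Herc6, Oasl1, Ifit2, Ifit3, Bst2, Samd9l, Parp9, Parp14, Trim30a and Xaf1. With the term kept, leaving out CON replicate 3, the CON mouse with a lettered code, lowered the median to 0.256, with 29 of 34 members higher. Within the numbered codes alone (3 E2 and 2 CON mice), 25 members were higher (47.2% of all features). Their median difference was 0.2, with a range of -0.268 to 0.916 over the 34. Within the lettered codes there is 1 mouse per group. All 34 were higher in E2 replicate 4 than in CON replicate 3 (45.4% of all features), with a median of 2.308.

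**Figure D2:**
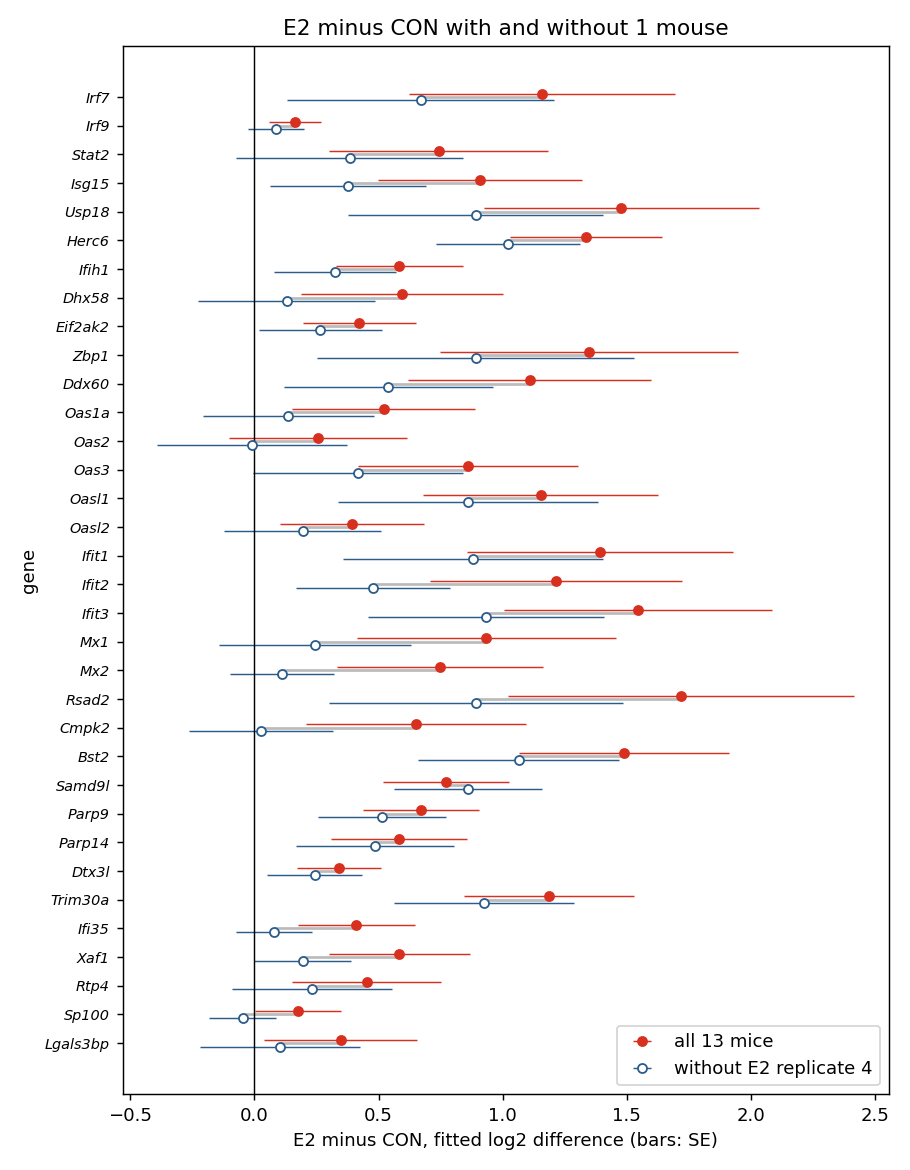
Fitted E2 minus CON difference on the log2 scale (horizontal axis, bars are SE) of the 34 genes (vertical axis), with all 13 mice and without E2 replicate 4. All 34 points lie above 0 with all mice, around a median of 0.745, and 32 of 34 without E2 replicate 4, around a median of 0.381.

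Of the members that carry the signal into the nucleus, IRF7, STAT2 and IRF9, 3 of 3 were higher in E2 than in CON mice in the fit (median 0.742, and 0.383 without E2 replicate 4), and 0 had an unadjusted p under 0.05. Irf7, the factor that amplifies interferon production, read 9.33, 8.17 and 9.21 in MIX, 8.70, 8.52, 8.55 and 10.70 in E2, 7.54, 8.60 and 9.64 in HD and 8.60, 8.04 and 7.47 in CON mice. The 3 E2 mice other than replicate 4 lay at or near the highest CON mouse. Irf7 averaged 9.12 ± 1.06 in E2 mice (SD, n = 4) and 8.04 ± 0.56 in CON mice (SD, n = 3), and the fitted difference was 1.16 (SE 0.54), or 0.67 without E2 replicate 4. Stat2, a subunit of ISGF3, read 9.01, 8.06 and 9.01 in MIX, 8.45, 8.25, 7.96 and 9.91 in E2, 7.27, 8.14 and 9.16 in HD and 8.25, 8.12 and 7.56 in CON mice, so that the groups overlapped. Its E2 minus CON difference was 0.74 (SE 0.44), or 0.38 without E2 replicate 4. Irf9, the DNA-binding subunit of ISGF3, differed least of all 34 members (0.16, SE 0.11, or 0.09 without E2 replicate 4).

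ISG15 is a ubiquitin-like protein that is attached to other proteins, in mice chiefly by the ligase HERC6, and removed by USP18. All 3 genes were higher in E2 than in CON mice in the fit (median 1.337, and 0.891 without E2 replicate 4). Herc6 read 6.97, 6.69 and 7.42 in MIX, 7.35, 6.66, 6.87 and 8.34 in E2, 5.94, 6.63 and 6.85 in HD and 6.25, 5.84 and 5.98 in CON mice. All E2 and all MIX mice exceeded all CON mice, and the HD mice spanned the gap. The Herc6 difference between E2 and CON was 1.34 (SE 0.31, 2.53-fold), the smallest unadjusted p of the list (0.00133, with an adjusted p of 1 in limma), and 1.02 (SE 0.29) without E2 replicate 4. Usp18 read 8.41, 8.05 and 9.25 in MIX, 8.88, 8.03, 8.05 and 10.49 in E2, 6.74, 7.63 and 8.35 in HD and 7.83, 7.76 and 6.77 in CON mice, and again no MIX or E2 mouse lay below a CON mouse. Usp18 differed by 1.48 (SE 0.56, 2.79-fold) between E2 and CON, and by 0.89 (SE 0.52) without E2 replicate 4. Isg15 was dim, with 4.61, 4.32 and 5.20 in MIX, 5.29, 4.42, 4.61 and 6.80 in E2, 4.0, 4.63 and 4.78 in HD and 4.57, 4.44 and 4.31 in CON mice. Its difference of 0.91 (SE 0.41) was 0.38 without E2 replicate 4, and RMA compresses differences of dim features.

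**Figure D3:**
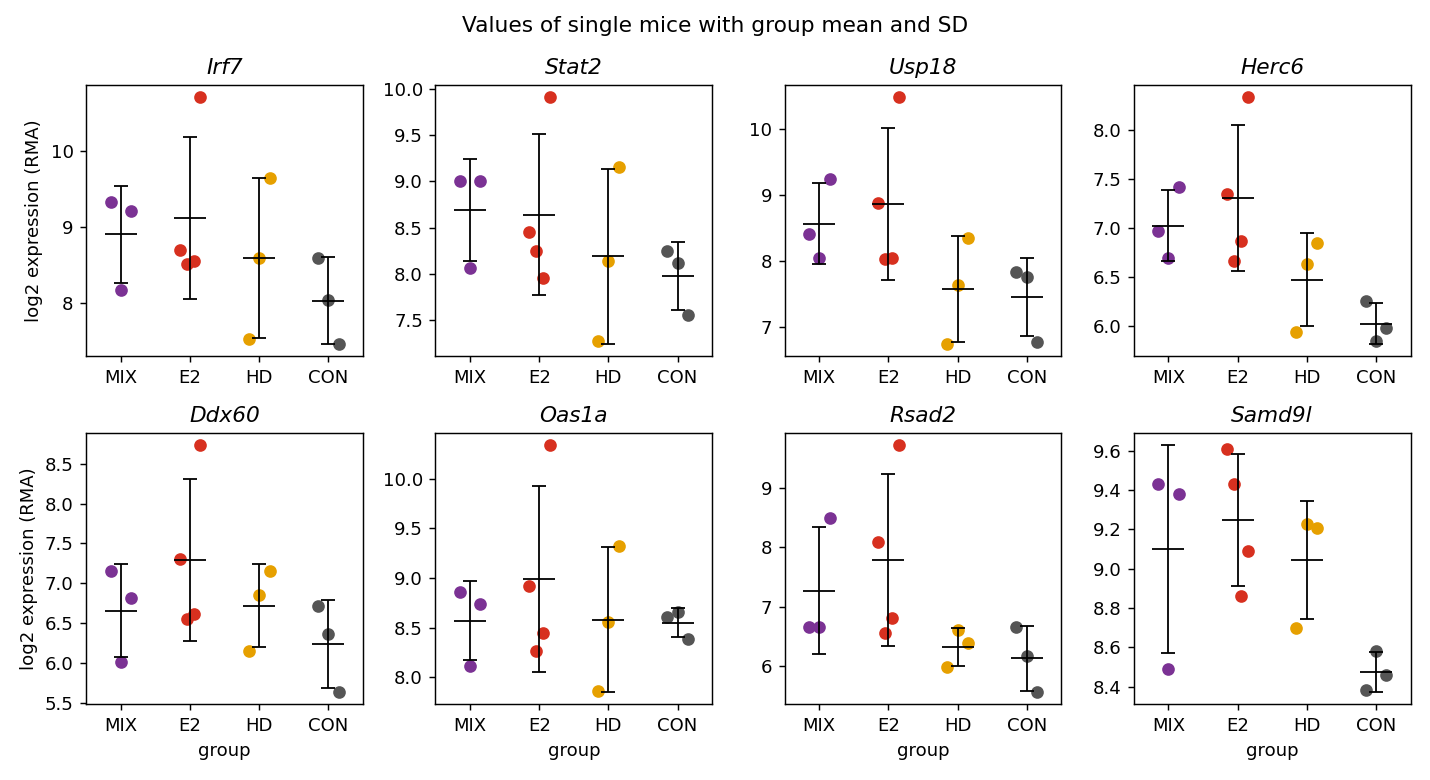
Log2 values of single mice (points, replicates of a group from left to right, so that the last E2 point is replicate 4) with the group mean and SD (lines and bars) for 8 genes named in the text, one panel per gene, with MIX, E2, HD and CON from left to right. In Herc6 the 4 E2 mice sit between 6.66 and 8.34, all above the CON mice at 5.84 to 6.25.

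The sensors of foreign or displaced nucleic acids were higher in E2 than in CON mice in 5 of 5 genes, 3 of them (Ifih1, Zbp1 and Ddx60) with an unadjusted p under 0.05, and their median difference was 0.595, or 0.324 without E2 replicate 4. Ifih1 encodes MDA5, which binds long double-stranded RNA. It read 7.47, 6.92 and 7.45 in MIX, 7.48, 6.82, 6.96 and 8.46 in E2, 6.47, 6.74 and 7.47 in HD and 6.91, 6.89 and 6.93 in CON mice. E2 replicate 2 lay below the CON mice, and the difference of 0.58 (SE 0.26) was 0.32 without E2 replicate 4. Ddx60, a helicase-family protein, read 7.15, 6.01 and 6.82 in MIX, 7.30, 6.55, 6.61 and 8.73 in E2, 6.15, 6.85 and 7.16 in HD and 6.72, 6.36 and 5.64 in CON mice. The E2 and CON mice overlapped, and the difference of 1.11 (SE 0.49) was 0.54 (SE 0.42) without E2 replicate 4. Zbp1, a sensor of Z-form nucleic acids, differed by 1.35 (SE 0.60), or by 0.89 without that mouse. Dhx58, which encodes the MDA5 partner LGP2, differed by 0.60 (SE 0.41), or by 0.13. Eif2ak2 encodes PKR, which halts translation on double-stranded RNA, and its 4 E2 mice read 9.25, 8.46, 8.42 and 9.52, against 8.56, 8.43 and 8.59 in CON mice.

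The oligoadenylate synthetases make the second messenger that activates RNase L, and their relatives OASL1 and OASL2 belong to the same family. All 5 were higher in E2 than in CON mice (median 0.52), against 4 of 5 without E2 replicate 4 (median 0.194). Oasl1, known in mice to repress translation of IRF7, read 8.15, 6.84 and 8.54 in MIX, 7.78, 7.65, 7.36 and 9.06 in E2, 6.58, 7.37 and 8.38 in HD and 7.19, 6.95 and 6.49 in CON mice. All E2 mice lay above all CON mice, and the difference was 1.15 (SE 0.47), or 0.86 (SE 0.52) without E2 replicate 4. Oas1a read 8.86, 8.11 and 8.74 in MIX, 8.92, 8.26, 8.44 and 10.34 in E2, 7.86, 8.56 and 9.32 in HD and 8.61, 8.66 and 8.38 in CON mice. With E2 replicate 4 set aside, its E2 mice lay on both sides of the CON mice, and the difference of 0.52 (SE 0.37) was 0.14. Oas3 differed by 0.86 (SE 0.44), or by 0.42 without that mouse, and Oas2 by 0.26 (SE 0.36), or by -0.01. Oas1a has close copies elsewhere in the mouse genome whose transcripts can share its probes.

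The direct antiviral effectors included Rsad2, the member with the widest difference between E2 and CON, and 9 of 9 were higher, 6 of them (Ifit1, Ifit2, Ifit3, Rsad2, Bst2 and Samd9l) with an unadjusted p under 0.05, and a median of 1.214, or 0.861 without E2 replicate 4. Bst2 encodes tetherin, which holds budding virus particles at the cell surface. It read 8.78, 9.02 and 10.17 in MIX, 10.26, 9.55, 9.69 and 11.42 in E2, 8.87, 9.51 and 9.80 in HD and 8.91, 8.98 and 8.48 in CON mice. All 4 E2 mice exceeded all CON mice, whereas MIX replicate 1 and HD replicate 1 lay among the CON mice. Bst2 averaged 10.23 ± 0.85 in E2 (SD, n = 4) and 8.79 ± 0.27 in CON mice (SD, n = 3), a fitted difference of 1.49 (SE 0.42, 2.81-fold), and 1.06 (SE 0.41) without E2 replicate 4. Rsad2, the enzyme that makes a chain-terminating nucleotide, read 6.65, 6.65 and 8.50 in MIX, 8.09, 6.55, 6.80 and 9.72 in E2, 5.98, 6.61 and 6.38 in HD and 6.65, 6.17 and 5.56 in CON mice. Its high values came from E2 replicates 1 and 4 and MIX replicate 3, and the other E2 mice lay near the highest CON mouse. The Rsad2 difference was 1.72 (SE 0.70, 3.29-fold), or 0.89 (SE 0.59) without E2 replicate 4. Ifit3, which partners IFIT1 in binding viral RNA ends, differed by 1.55 (SE 0.54), or by 0.93, and its probes can be shared with the copy Ifit3b. Samd9l, a restriction factor for poxviruses, differed by 0.77 (SE 0.26), and by 0.86 (SE 0.30) without E2 replicate 4, whose value of 9.09 lay inside the range of the other E2 mice (8.86 to 9.61) and above the CON mice at 8.38, 8.58 and 8.46.

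PARP9 and DTX3L form a complex that joins ADP-ribosylation to ubiquitylation, and PARP14 is a mono-ADP-ribosyltransferase. The 3 genes were higher in E2 than in CON mice with a median of 0.582, and of 0.485 without E2 replicate 4. Parp9 read 8.67, 7.93 and 8.63 in MIX, 8.53, 8.01, 8.13 and 8.87 in E2, 7.72, 8.13 and 8.38 in HD and 7.87, 7.79 and 7.55 in CON mice. All MIX and all E2 mice lay above all CON mice, by a narrow margin in MIX replicate 2. Parp9 differed by 0.67 (SE 0.23) between E2 and CON, or by 0.51 (SE 0.26) without E2 replicate 4. Parp14 differed by 0.58 (SE 0.27) and Dtx3l by 0.34 (SE 0.17), or by 0.49 and 0.24 without that mouse.

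Of the 6 remaining members, which encode proteins of mixed function, 6 were higher in E2 than in CON mice (median 0.431) and 5 without E2 replicate 4 (median 0.148). Trim30a, a mouse TRIM protein that restrains Toll-like receptor signalling, read 8.31, 7.90 and 8.88 in MIX, 8.69, 7.93, 8.26 and 9.77 in E2, 7.26, 7.97 and 8.75 in HD and 7.76, 7.37 and 7.51 in CON mice. No MIX or E2 mouse overlapped the CON mice, and the difference was 1.19 (SE 0.34, 2.28-fold), or 0.93 (SE 0.36) without E2 replicate 4. Sp100, a protein of nuclear bodies, differed by 0.18 (SE 0.17), and by -0.05 without that mouse. Lgals3bp, a secreted galectin-binding glycoprotein, differed by 0.35 (SE 0.31), or by 0.10. Xaf1, a partner of the apoptosis inhibitor XIAP, read 8.26, 8.15, 8.17 and 9.71 in E2, against 8.13, 8.03 and 7.96 in CON mice. Ifi35, which pairs with the protein NMI, read 7.32, 6.96, 7.17 and 8.32 in E2, against 7.18, 7.18 and 6.85 in CON mice. Rtp4, a chaperone of membrane receptors, read 7.85, 7.32, 7.33 and 8.60 in E2, against 7.58, 7.39 and 7.15 in CON mice. In Xaf1 the E2 mice other than replicate 4 lay just above the CON mice, whereas in Ifi35 and Rtp4 they overlapped.

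The high-fat diet without a pellet was compared with chow. Here 28 of 34 members were higher in HD than in CON mice, against 57.2% of all features, with a median of 0.165 and a range of -0.101 (Irf9) to 0.602 (Bst2). In limma 0 of 34 were called (0% of all features, smallest adjusted p 1), and 0 had an unadjusted p under 0.05 in either direction, against 1.99% of all features higher and 0.916% lower. Samd9l was the only member in which every HD mouse, at 8.70, 9.23 and 9.21, lay above every CON mouse, at 8.38, 8.58 and 8.46, while 5.58% of all features did so. Its difference was 0.57 (SE 0.27). Irf7 spanned 7.54 to 9.64 in HD mice, on both sides of the CON mice, with a difference of 0.56 (SE 0.57). The code styles disagreed in this comparison. In the numbered codes (2 HD and 2 CON mice) 7 members were higher (49.1% of all features), with a median of -0.213. In the lettered codes (1 mouse each) all 34 were higher (61.5% of all features), with a median of 0.937. Without CON replicate 3 and with the code style term, 5 members were higher with a median of -0.388. This comparison does not hold up against the spread between mice.

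The pellet with the high-fat diet was compared with chow alone. Fitted with the code style term, 19 of 34 members were higher in MIX than in CON mice (42.5% of all features), with a median of 0.047. Fitted without that term, 30 were higher (37.1% of all features), with a median of 0.415. With the term but without E2 replicate 4, 27 were higher (40.9% of all features) with a median of 0.289. The term is estimated only from the 1 lettered mouse in each of E2, HD and CON, and it was large for these genes: the lettered minus numbered difference had a median of 0.752 over the members (above 0 in 33 of 34), and of 0.245 without E2 replicate 4. In 13 of the 34 members it had an unadjusted p under 0.05. In limma 0 of 34 members were called in any of these fits, against 0.00303% of all features with the term and 0.0228% without it, and the smallest adjusted p was 0.498 with the term and 0.367 without. Sp100 alone had an unadjusted p under 0.05 with the term (-0.57, SE 0.21), in the direction of lower values, where 4.64% of all features did, and 0 members had one in the direction of higher values, where 3.7% did. Without the term Herc6, Samd9l and Parp9 had one, in the direction of higher values, where 4.43% did, and 0 in the other, where 7.24% did. Sp100 averaged 8.438 in MIX and 8.445 in CON mice, and its difference without the term was -0.008 (SE 0.347). Every MIX mouse lay above every CON mouse in 5 members (Usp18, Herc6, Ifit3, Parp9 and Trim30a), against 5.52% of all features, and below in 0, against 12.4%. Herc6 averaged 7.03 ± 0.37 in MIX and 6.02 ± 0.21 in CON mice (SD, n = 3 each), a difference of 1.00 without the term and 0.57 (SE 0.38) with it. Usp18 averaged 8.57 ± 0.61 in MIX and 7.45 ± 0.59 in CON mice, and its difference was 1.11 (SE 0.64) without the term and 0.56 (SE 0.68) with it. Against the 1 lettered CON mouse, the 3 MIX mice were on average higher in 30 members (44.9% of all features), with a median of 0.659 and no test. Without CON replicate 3 and with the term, 2 members were higher, with a median of -0.917. In that fit the term rests only on the lettered mice of E2 and HD, E2 replicate 4 and HD replicate 3.

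**Figure D4:**
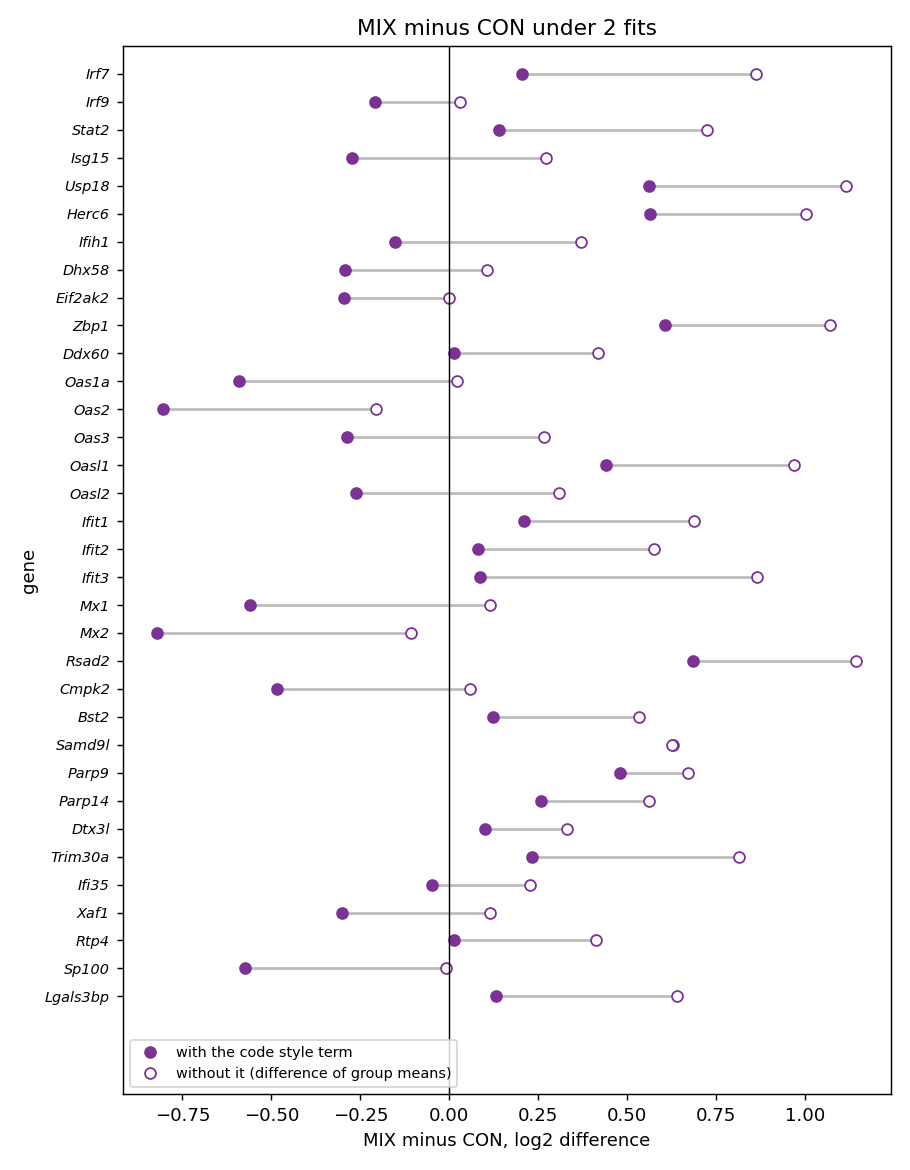
MIX minus CON difference on the log2 scale (horizontal axis) of the 34 genes (vertical axis), fitted with and without the code style term. Without the term 30 of 34 points lie above 0, around a median of 0.415, and with it 19 of 34, around a median of 0.047.

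On the high-fat diet, MIX was compared with HD. With the code style term 8 of 34 members were higher in MIX than in HD mice (37.5% of all features; median -0.131), and without it 26 were (32.3%; median 0.255). Without E2 replicate 4 and with the term, 22 were higher (36.1%), with a median of 0.062, and without CON replicate 3 only 2 were, with a median of -0.521. In limma 0 were called (0.00455% of all features, smallest adjusted p 0.7). Sp100 alone had an unadjusted p under 0.05, with a difference of -0.51 (SE 0.21) with the term, where 4.64% of all features were lower and 2.41% higher, and of 0.06 (SE 0.35) without the term. Rsad2 was the only member in which all MIX mice, at 6.65, 6.65 and 8.50, lay above all HD mice, at 5.98, 6.61 and 6.38, against 3.47% of all features. For the other members the groups overlapped, and the direction of the list depends on the code style term.

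Under the pellet, MIX was compared with E2. With the code style term 0 of 34 members were higher in MIX than in E2 mice (43.7% of all features), with a median of -0.886, and 13 had an unadjusted p under 0.05 in the direction of lower values, against 1.53% of all features, and 0 in the direction of higher ones, against 1.25%. Without the term 6 were higher (37.1% of all features), with a median of -0.297 and 0 at an unadjusted p under 0.05 in either direction, against 2.32% of all features higher and 4.72% lower. Without E2 replicate 4, 9 were higher with the term (41.4% of all features; median -0.177) and 22 without it (35%; median 0.063). With the term and without that mouse, the 13 members at an unadjusted p under 0.05 became 0, against 1.35% of all features. In limma 0 of 34 were called with the term (0% of all features, smallest adjusted p 1). Bst2 averaged 9.33 ± 0.75 in MIX (SD, n = 3) and 10.23 ± 0.85 in E2 mice (SD, n = 4), a difference of -1.37 (SE 0.51) with the term and of -0.58 when E2 replicate 4 was left out. In 0 members did every MIX mouse lie below every E2 mouse (4.15% of all features), and in 0 above (1.5%).

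The interaction, MIX minus HD less E2 minus CON, was below 0 in 34 of 34 members with the code style term (median -1.06), while 40.4% of all features lay above 0. At an unadjusted p under 0.05, 7 members (Herc6, Eif2ak2, Mx1, Mx2, Bst2, Trim30a and Sp100) lay below 0, against 1.45% of all features, and 0 above it, against 0.651%, and 0 were called in limma (0% of all features, smallest adjusted p 1). Without the term 2 members lay above 0 (35.5% of all features; median -0.541). Without E2 replicate 4 the median was -0.255 with 6 above 0 (37.8%), and without both it was -0.099 with 11 above 0 (33.8%). The 7 members at an unadjusted p under 0.05 became 1 (Bst2) without the term, against 3.31% of all features, and 0 without E2 replicate 4, against 1.49%. Bst2 had the widest value, -1.97 (SE 0.68), and -1.18 without E2 replicate 4. This interaction and the comparison of MIX with E2 share the E2 mice, and both were several times smaller without replicate 4.

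Averaged over both diets, the pellet difference was above 0 in 28 of 34 members, against 38.9% of all features, with a median of 0.274, or 0.259 without E2 replicate 4. In limma 0 of 34 were called (0.0167% of all features, smallest adjusted p 0.379). At an unadjusted p under 0.05, 3 members were higher and 0 lower, against 3.73% and 6.25% of all features. They were Herc6 (0.73, SE 0.24), Usp18 (0.96, SE 0.43) and Parp9 (0.41, SE 0.18), and without E2 replicate 4 these differences were 0.70, 0.92 and 0.40, with 4 members at an unadjusted p under 0.05 (3.54% of all features). Without the code style term 33 of 34 members were above 0 (35.6% of all features), the median was 0.433, and 9 had an unadjusted p under 0.05 in the direction of higher values, against 3.99% of all features. With the term, leaving out CON replicate 3 lowered the median over the members to -0.102, with 12 of 34 above 0.

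The genes that make and receive the signal were set beside the members. Of 20 type I and III interferon genes, 17 had a feature, and 8 of these were below the median of all features. Their mean over the 17 stayed within 4.35 to 4.70 in the 13 mice, 0 of 17 were called in limma, and 6 of 17 were higher in E2 than in CON mice (median -0.026). E2 replicate 4 was the highest mouse in 0 of 17, and Ifnb1, interferon beta, differed by -0.01 (SE 0.07). The genes of the alpha family are near copies of each other, so their features are not independent. Ifne, interferon epsilon, was well above the median of features, with 8.66, 6.57 and 7.52 in MIX, 8.56, 7.86, 6.82 and 6.26 in E2, 6.50, 7.54 and 8.40 in HD and 6.45, 6.68 and 7.34 in CON mice. E2 replicate 4 had the lowest Ifne value of all 13 mice, and the groups overlapped (E2 minus CON 0.56, SE 0.66, and 1.28 without E2 replicate 4). Among interferon receptors and proximal signalling genes, 15 of 16 were measured, 10 of 15 were higher in E2 than in CON mice (median 0.066), and E2 replicate 4 was highest in 0. Ifnar2, the signalling chain of the receptor, differed by 0.34 (SE 0.17) and the kinase Jak1 by 0.20 (SE 0.10).

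Among genes of upstream sensing, 19 of 20 were measured and 16 were higher in E2 than in CON mice (median 0.31, or 0.229 without E2 replicate 4). At an unadjusted p under 0.05, 5 of them were higher and 1 lower (4 and 0 without E2 replicate 4), with 0 called in limma, and E2 replicate 4 was highest in 5 of 19. Ddx58, the RNA sensor RIG-I, read 9.25 in that mouse and 7.73 to 8.33 in the other 12. Aim2, a sensor of cytosolic DNA, read 5.97 there, below the other E2 mice and above the CON mice. A further list of interferon-stimulated genes outside the 36 had 44 of 50 measured, of which 40 were higher in E2 than in CON mice, with a median of 0.512, or 0.215 without E2 replicate 4. There 14 had an unadjusted p under 0.05 (5 without E2 replicate 4), 0 were called in limma, and E2 replicate 4 was highest in 32 (72.7%). Isg20, an RNA exonuclease, differed by 0.65 (SE 0.15) and Ifi27l2a by 1.51 (SE 0.47), and without E2 replicate 4 they differed by 0.54 and 0.95. Among interferon gamma targets, 21 of 23 were measured and 21 were higher in E2 than in CON mice (median 0.478, or 0.421 without E2 replicate 4). Of these 10 had an unadjusted p under 0.05 (4 without E2 replicate 4), 0 were called in limma, and E2 replicate 4 was highest in 9 (42.9%). Gbp2, a guanylate-binding protein, differed by 1.78 (SE 0.50), or by 1.70 without E2 replicate 4, and was highest in E2 replicate 1, at 10.79.

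Markers of other cell types were set beside the members, and 0 of those in the lists described here were called in E2 minus CON. The mean over 14 macrophage markers, such as Csf1r, Adgre1 and Cd68, was 7.50 to 8.71 in MIX, 7.57 to 7.97 in E2, 7.34 to 7.42 in HD and 6.61 to 6.98 in CON mice. All 14 were higher in E2 than in CON mice (median 1.058, and 1.059 without E2 replicate 4), with 9 at an unadjusted p under 0.05 and 0 called in limma. The 4 monocyte markers measured of 6 averaged 6.70 to 8.38 in MIX, 7.20 to 7.73 in E2, 6.54 to 7.23 in HD and 6.13 to 6.76 in CON mice. In the comparison of E2 with CON, macrophage markers thus differed in the same direction as the interferon-stimulated genes, and their part in that difference was not tested. E2 replicate 4 was the highest mouse in 0 of 14 macrophage and 0 of 4 monocyte markers. Its macrophage mean of 7.78 and its monocyte mean of 7.46 lay inside the range of the other E2 mice. Both means were above those of all CON mice. Plasmacytoid dendritic cells are the chief blood source of interferon alpha. Their 7 measured markers averaged 6.26 to 6.50 in MIX, 6.17 to 6.71 in E2, 5.62 to 6.19 in HD and 5.69 to 5.98 in CON mice, with E2 replicate 4 the lowest E2 mouse. Their defining marker Siglech lay at 4.6 to 5.26 in the 13 mice, close to the median of all features. The higher mean over the list therefore came from the other markers, and whether it reflects these cells was not tested. The 9 granulocyte markers averaged 5.84 to 8.71 in MIX, 5.90 to 7.54 in E2, 5.36 to 5.64 in HD and 4.86 to 5.25 in CON mice. The 11 measured T, NK and B cell markers averaged 4.79 to 5.48 in MIX, 4.84 to 5.07 in E2, 4.6 to 4.69 in HD and 4.57 to 4.82 in CON mice, and E2 replicate 4 was highest in 1 of the 11. For stromal markers, the mean over 8 genes was 7.85 to 9.63 in MIX, 7.86 to 9.08 in E2, 7.98 to 8.07 in HD and 7.76 to 8.40 in CON mice. The highest E2 value was that of E2 replicate 4, and the median stromal difference between E2 and CON was 0.435 with that mouse and 0.036 without it. The part of stromal content in the results of this mouse was not tested. For 6 endothelial markers the mean was 5.12 to 8.00 in MIX, 5.40 to 6.33 in E2, 5.43 to 5.76 in HD and 5.81 to 5.95 in CON mice. MIX replicate 2, the lowest MIX mouse in most members, had the highest stromal and endothelial means of all 13 mice, and their part in its values was not tested. The 7 smooth muscle markers averaged 6.73 to 7.79 in MIX, 6.71 to 7.24 in E2, 6.84 to 7.43 in HD and 6.67 to 7.85 in CON mice. The mean over 5 adipocyte markers, 3 of them dim, was 5.13 in CON replicate 3 and 4.29 to 4.63 in the other mice. CON replicate 3 also had the highest smooth muscle and the lowest macrophage and stromal means of all 13 mice, and their part in its values was not tested. The 6 mesothelial markers averaged 8.84 to 9.46 in MIX, 8.34 to 9.49 in E2, 8.52 to 8.63 in HD and 7.86 to 8.45 in CON mice. Of these 5 were higher in E2 than in CON mice (median 0.908, or 0.854 without E2 replicate 4), 4 of them with an unadjusted p under 0.05, and their part in the difference was likewise not tested.

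**Figure D5:**
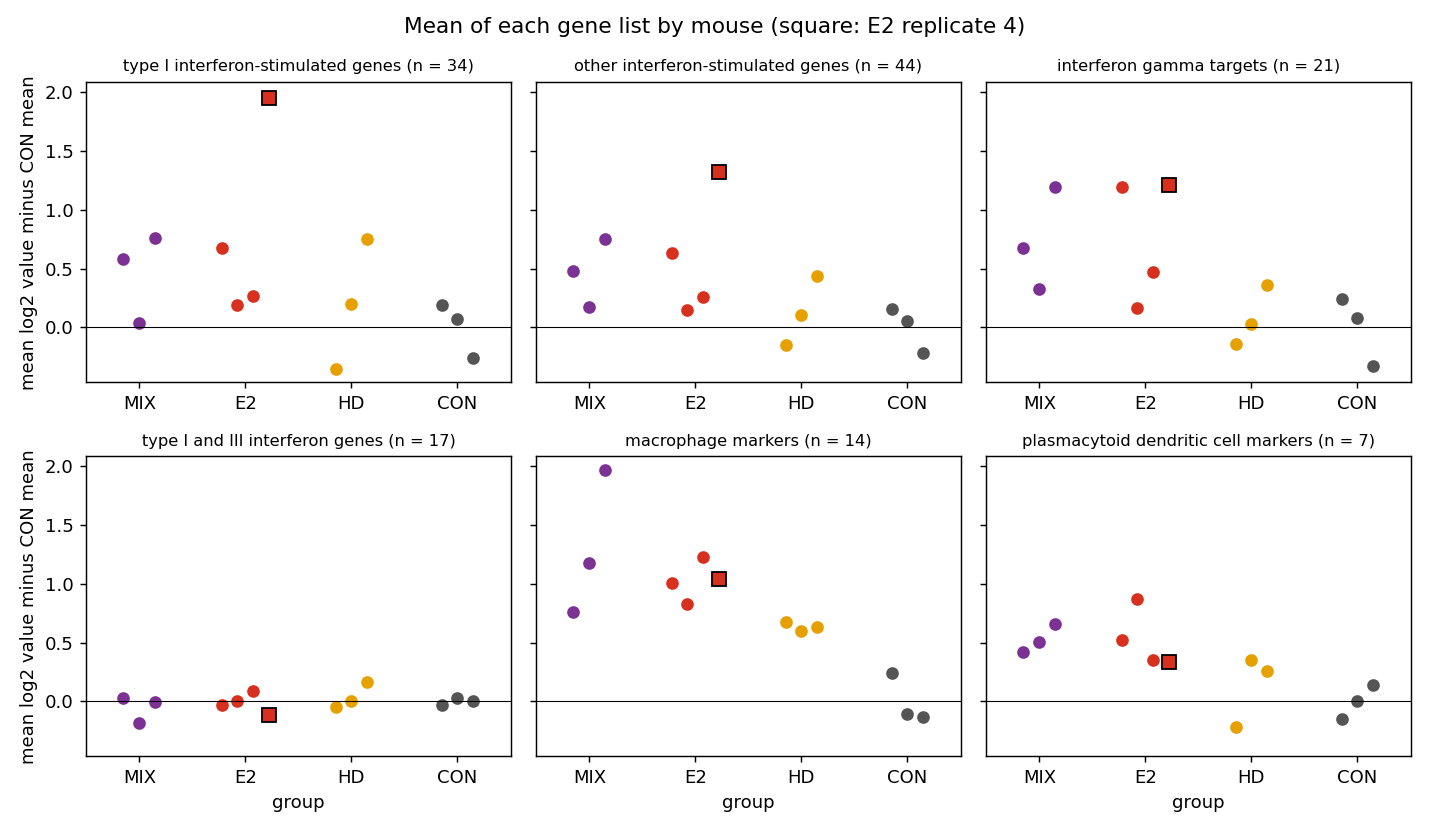
Mean log2 value per mouse (points; the square is E2 replicate 4) of the 34 interferon-stimulated genes and of other gene lists, one panel per list, as difference from the mean of the CON mice, with MIX, E2, HD and CON from left to right and the number of measured genes in each panel's title. E2 replicate 4 is far above the other mice in the interferon-stimulated genes (a mean of 9.44, against 7.14 to 8.25 in the other 12 mice) and lies within the other E2 mice in the macrophage markers.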

How the data were processed

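Each of the 13 mice gave 1 array, and groups were taken from the sample titles. Per the submitters' processing notes, the authors ran RMA, which normalises all arrays together, and the deposited unit is log2 expression per feature. Its version and any filter are not stated there. Features were named through the supplied array annotation (30604 of 65929 with 1 symbol, 2146 with several, 33179 unnamed here), with 827 symbols updated through RefSeq (GRCm38.p6). Values ran from 1.66 to 13.8, array medians from 4.48 to 4.71, and correlations over the 78 array pairs from 0.960 to 0.995. An array gives no read depth, so the number of mice limits the precision.

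All 65929 features entered 1 fit (lmFit and eBayes, limma 3.58.1, R 4.3.3) with 4 group coefficients and a code style term, 8 residual and 2.225 prior degrees of freedom, tested on simulated data beforehand. Calls needed a two-sided p under 0.05 after Benjamini-Hochberg adjustment over the whole table. Code style itself gave 0 features at an adjusted p under 0.05 and 3516 below 0.05 unadjusted (3296 by chance), among them 13 of the 34 members. Alternatives were no code style term, a replicate block, a filter on dim features, centred arrays, a trended robust variance, each mouse left out, and single code styles. The members and the lists were chosen with earlier results of these data known. Values of every mouse are given for Isg15, Irf7 and Stat2, and in each role for the member with the smallest unadjusted p in E2 minus CON and the member with the largest SD among E2 mice. Differences are given for these and for up to 2 further members per role with the smallest unadjusted p in the averaged pellet difference. Other members named were chosen after their values were seen.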

Additional observations from a re-analysis of the deposited data

Results flagged for a closer look

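In 8 of the 34 genes, the highest E2 mouse lay far enough from the other 3 for the gap between it and the next mouse, as a share of the group's whole range, to exceed Dixon's critical value for 4 samples. The mouse was E2 replicate 4 in all 8. The share was 0.917 in Irf7, 0.844 in Oas3, 0.871 in Oasl2, 0.844 in Ifit2, 0.911 in Mx2, 0.928 in Xaf1, 0.836 in Sp100 and 0.903 in Lgals3bp. Chance flags about 1 in 20 groups, counting both ends, and 5.56% of all features exceeded the value at the high end of the E2 mice. The 8 genes are not independent of each other, since they were read on the same array. Irf7 read 10.70 in this mouse, against 8.52 to 8.70 in the other E2 mice, Mx2 8.47 against 5.81 to 6.04, and Lgals3bp 11.80 against 10.43 to 10.56. What sets this mouse apart was not tested.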

How the results depend on the processing

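No gene of the 34 was called in any comparison under any of the 20 settings, and of 844 single differences recomputed, 812 kept their direction, 32 changed sign and 0 passed the threshold. Without the code style term, the number of genes higher was 30 in MIX minus CON, 26 in MIX minus HD (median 0.255, Sp100 0.055), 6 in MIX minus E2 (median -0.297, Lgals3bp 0.36) and 2 in the interaction. Same-numbered mice of different groups showed no regular common deviation (correlations of -0.261 to 0.31 over 18 pairs, and 4 of 12 mice were closest to their own number). With so few mice per group, this check cannot exclude a weak pairing by number. With a replicate block, the E2 minus CON differences of Oas2 and Sp100 were -0.04 and -0.007, and the number higher was 23 in MIX minus HD (median 0.205), 17 in MIX minus E2 (median -0.019, Lgals3bp 0.37) and 8 in the interaction (median -0.208). With centred arrays 14 were higher in MIX minus HD. In the numbered codes alone, chosen after seeing the data like the other single-style and combined settings, E2 minus CON was -0.11 for Dhx58, -0.092 for Oas1a, -0.27 for Oas2, -0.14 for Sp100 and -0.18 for Lgals3bp, and HD minus CON had 7 higher, a median of -0.213 and -0.25 for Irf7. In the lettered codes alone the medians were 0.659 for MIX minus CON and -1.522 for MIX minus E2. Without both the term and E2 replicate 4, E2 minus CON was -0.006 for Oas1a, -0.20 for Oas2, -0.24 for Sp100 and -0.047 for Lgals3bp, the number higher was 30 in MIX minus CON, 26 in MIX minus HD (median 0.255, Sp100 0.055), 22 in MIX minus E2 (median 0.063, Sp100 0.23, Lgals3bp 0.69) and 11 in the interaction (median -0.099). Leaving out each mouse in turn gave these ranges of the number higher and of the median: 29 to 34 and 0.256 to 0.953 in E2 minus CON, 5 to 33 and -0.388 to 0.421 in HD minus CON, 2 to 27 and -0.917 to 0.289 in MIX minus CON, 2 to 22 and -0.521 to 0.062 in MIX minus HD, 0 to 9 and -1.316 to -0.177 in MIX minus E2, 0 to 6 and -1.429 to -0.255 in the interaction, and 12 to 32 and -0.102 to 0.388 for the averaged pellet difference. Single genes that changed sign in these repeats spanned, in E2 minus CON, -0.011 to 0.754 (Oas1a), -0.25 to 0.49 (Oas2), -0.074 to 0.284 (Sp100) and -0.17 to 0.63 (Lgals3bp); Irf7 spanned -0.35 to 1.04 in HD minus CON. In MIX minus CON they spanned -0.014 to 0.836 (Herc6), -0.93 to 1.06 (Usp18), -0.54 to 1.40 (Rsad2) and -0.80 to 0.34 (Lgals3bp), in MIX minus HD -0.14 to 0.94 (Usp18) and -0.17 to 0.62 (Lgals3bp), and in MIX minus E2 -0.62 to 0.24 (Lgals3bp). The lowest of most ranges came without CON replicate 3. Those fits kept the code style term, which then rested on E2 replicate 4 and HD replicate 3, the only lettered mice left in groups with both styles. The part of the term in these ranges was not tested. Averaging features per symbol was not run, since each gene had 1 feature.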
